A study of Mus musculus with 8 samples.

Results

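This account covers the nuclear genes of 3 linked parts of oxidative phosphorylation: complex III (the cytochrome bc1 complex), complex IV (cytochrome c oxidase) with the electron carrier cytochrome c, and the ATP synthase, also called complex V. Members were all genes whose symbol in the array's annotation begins with Uqcr, with Cox and a digit, or with Atp5, together with Cyc1 and Cycs, read by probe sets paired with exactly 1 symbol. The rule took 52 genes on 105 probe sets, of 18193 genes on 34945 probe sets with 1 symbol. They comprised 9 genes of complex III, 25 of complex IV, 17 of the ATP synthase and cytochrome c. Of the 52, 50 lay above the filter on dim probe sets and were tested. Cox6b2, a form known from testis, and Cox7b2 lay below it, with signals of 26.3 to 86.9 on the hypoxia arrays and 20.6 to 117 on the control arrays for Cox6b2, and 12.3 to 118 on the hypoxia arrays and 8.9 to 71.8 on the control arrays for Cox7b2.

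Transcript levels were read on Affymetrix Mouse 430 2.0 arrays in the quadriceps of adult male C57Bl/10 mice. Hypoxia muscle (4 arrays) came from mice held for 2 weeks in a sealed chamber, where oxygen was lowered gradually to 8% from 21% in the first week and then held at 8% for 7 days. Control muscle (4 arrays) came from mice in room conditions for the same 2 weeks, and since no chamber is described for them, housing and low oxygen cannot be told apart. Each RNA is described as coming from a quadriceps, and whether the 4 of a group were separate animals is not given in the sources used here, so p-values measure the spread between these samples. A signal is the deposited MAS5 intensity, a linear brightness, and a change is the log2 difference, hypoxia minus control, of the signal plus 16, with its standard error (SE) from limma. A change was called where limma's p, adjusted over all 13258 genes tested, was at most 0.05, and values after ± beside signals are SDs over 4 arrays.

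Complex III takes electrons from ubiquinol and passes them through cytochrome c1 to cytochrome c, a small soluble protein, while pumping protons across the inner mitochondrial membrane. Complex IV passes them on to oxygen, and the ATP synthase lets protons return and makes ATP. The catalytic core of complex IV is encoded in mitochondrial DNA, and its nuclear subunits surround it; several of these exist as pairs, 1 form found in heart and skeletal muscle and 1 in most tissues. The 6 mitochondrially encoded subunits of these complexes had no probe set with 1 symbol and were not analysed here.

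The promoter windows shown first belong to Cox7a1 and Cox7a2, which of the 7 isoform pairs tested had the largest difference in change, and to Atp5k and Uqcr11, which were chosen after the matches were seen because, of the members called lower, they held the most of the 7 motifs searched. Each window holds 250 bases before the annotated start of the gene and 50 after it, from RefSeq on GRCm38.p6, read 5′ to 3′ along the gene, and capitals mark a motif match. Cox7a1, chr7:30183921-30184220, plus strand, with the letters of a HIF core on the reverse strand:
Cox7a1: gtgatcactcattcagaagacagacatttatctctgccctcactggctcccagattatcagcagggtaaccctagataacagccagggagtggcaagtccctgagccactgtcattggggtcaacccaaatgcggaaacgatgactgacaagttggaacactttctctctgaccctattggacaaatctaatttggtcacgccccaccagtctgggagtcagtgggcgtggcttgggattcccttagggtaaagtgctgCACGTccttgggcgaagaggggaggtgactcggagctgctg
Cox7a2, chr9:79759804-79760103, minus strand, with no match to any of the 7 motifs:
Cox7a2: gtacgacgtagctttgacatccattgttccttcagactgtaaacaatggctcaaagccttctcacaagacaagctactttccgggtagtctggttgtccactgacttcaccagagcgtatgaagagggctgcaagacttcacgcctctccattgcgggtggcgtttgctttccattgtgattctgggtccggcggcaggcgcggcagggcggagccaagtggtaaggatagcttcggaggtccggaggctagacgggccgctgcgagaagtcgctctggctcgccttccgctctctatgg
Atp5k, chr5:108434350-108434649, minus strand, with NRF1 cores on both strands, an ETS core and an ERR half-site:
Atp5k: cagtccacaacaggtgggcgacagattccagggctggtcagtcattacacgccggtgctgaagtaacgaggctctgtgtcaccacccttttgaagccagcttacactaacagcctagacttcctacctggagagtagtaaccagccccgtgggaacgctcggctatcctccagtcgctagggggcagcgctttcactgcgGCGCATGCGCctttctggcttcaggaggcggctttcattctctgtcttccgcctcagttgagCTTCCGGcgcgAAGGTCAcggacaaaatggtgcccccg
Uqcr11, chr10:80406772-80407071, minus strand, with a HIF core, an ETS core and an NRF1 core:
Uqcr11: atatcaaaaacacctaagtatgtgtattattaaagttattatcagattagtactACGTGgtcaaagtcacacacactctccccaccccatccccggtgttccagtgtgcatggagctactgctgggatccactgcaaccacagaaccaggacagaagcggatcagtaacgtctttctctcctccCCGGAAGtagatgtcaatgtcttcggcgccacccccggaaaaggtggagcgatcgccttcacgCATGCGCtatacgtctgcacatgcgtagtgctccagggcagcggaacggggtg

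The motifs were searched on both strands: GCGCATG for NRF1, CCGGAAG for ETS factors such as GABP, AAGGTCA for the ERR receptors, AAGATGG for YY1, CAGCTG as the E-box of muscle genes, the HIF core ACGTG and the MEF2 consensus. NRF1, GABP, ERR and YY1 are known regulators of respiratory genes, MEF2 and E-box factors of muscle genes. Windows were given for 39 members. The NRF1 core lay in 8 of these (20.5%), against 4.41% of 27025 genes with a window, and the ETS core in 15 (38.5%) against 9.93%. The ERR half-site was found in 4 (10.3%), against 5.38% of all genes, the YY1 core in 6 (15.4%) against 7.28%, and the HIF core in 12 (30.8%) against 21.8%. The E-box lay in 2 members (5.13%), Atp5b and Cox8b, against 18.3% of all genes, and the MEF2 consensus in 0 against 3.7%. Of the 17 members with a window that were called lower, 5 held the NRF1 core and 5 the ETS core. Among the 22 others 3 held the NRF1 core and 10 the ETS core. These others include Cox16, which was called higher, and Cox6b2 and Cox7b2, which were not tested. The HIF core lay in 7 of the 17 and 5 of the 22, and the ERR half-site in 3 and 1. For the YY1 core the counts were 1 and 5, and for the E-box 2 and 0. These splits were not tested. In the 4 windows shown no match overlapped a match to another motif; in Atp5k the 2 NRF1 cores lie on opposite strands and overlap each other. The Cox7a1 window held 7 CpG dinucleotides and the Cox7a2 window 20. These are matches of letters, and no binding was measured.

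After hypoxia, 23 of the 50 tested members were lower and 2 were higher, where 18.8% of all genes tested were called lower and 14.8% higher. Members of complex III and the ATP synthase, cytochrome c and the muscle isoform gene Cox7a1 made up most of the falls, and the 2 rises were those of Cox16 and Cox18, assembly factors of complex IV. The median change was -0.41 over the tested members, against -0.04 over all genes tested. The 4 hypoxia values lay below all 4 control values in 22 members, a share seen in 18.7% of all genes, and above them in 1, seen in 14.8%. Most members were bright: 36 of the 50 had control signals averaging 10000 or more. At a mean log2 value of 12 or more, 23 of 40 members were lower and 1 higher, with a median change of -0.50, whereas of 1010 other genes above the same level 25.0% were lower and 31.3% higher, with a median of 0.08. Quantile normalization gave 25 lower and 2 higher members with a median of -0.31, and median centring 14 lower and 2 higher with a median of -0.33.

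**Figure D1:**
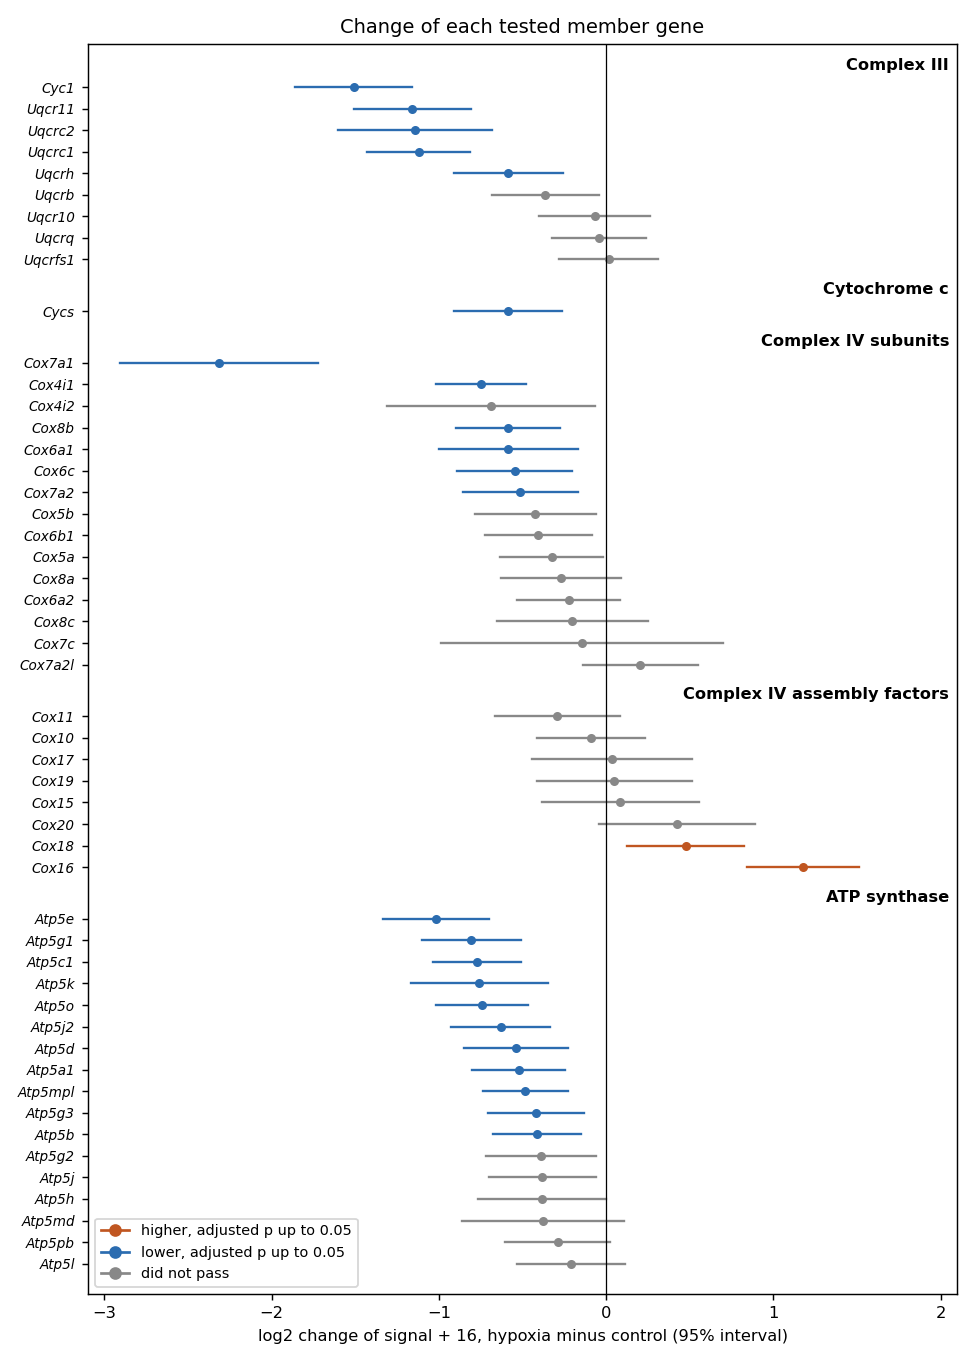
Change of each of the 50 tested members (log2, hypoxia minus control, horizontal axis) with its 95% interval, grouped by complex; orange genes were higher, blue genes lower and grey genes did not pass. The changes run from -2.32 for Cox7a1 to 1.18 for Cox16, and all 17 ATP synthase genes lie left of 0.

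For Gapdh, the ratio of 3′ to 5′ probe set signal, a measure that is high in degraded RNA, was 3.44 on hypoxia 1 and 0.801 to 0.874 on the other hypoxia arrays, against 0.776 to 0.807 in control; that of beta-actin was 1.40 to 2.53 in hypoxia and 1.09 to 1.25 in control. Hypoxia 1 also stood apart in the members, as the highest hypoxia array for 36 of 50. The median deviation of the members from their control mean was -0.17 on hypoxia 1, -0.46 on hypoxia 2, -0.60 on hypoxia 3 and -0.45 on hypoxia 4. Without hypoxia 1, 32 members were lower and 1 was higher: all 23 with lower calls stayed so, Uqcrb, Cox5a, Cox5b, Cox6b1, Cox11, Atp5h, Atp5j, Atp5md and Atp5pb joined them, and Cox18 no longer passed (change 0.40, adjusted p = 0.0768). The part of RNA quality in these changes was not tested.

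Muscle fibre markers, which bear out the labelled tissue by their bright signals, were lower too. Of 8 such genes 7 fell and 0 rose (median -0.47), Mb, encoding myoglobin, by -1.16 and Ckm, the muscle creatine kinase, by -0.55. The myosin gene Myh2 had the largest fall of the 8 (-1.83), whereas Myh4 changed by -0.47 and Myh1 by -0.40 without passing. The summed signal of the 8 genes was 246191 to 358020 in hypoxia and 397129 to 475950 in control. In whole muscle, fewer fibres and less RNA per fibre cannot be told apart. Neutrophil markers were higher in 3 of 4 tested, with sums of 3093 to 5735 in hypoxia and 294.8 to 757.2 in control, and fibroblast markers lower in 5 of 5, with sums of 13277 to 17470.0 in hypoxia and 38264 to 41752 in control. Macrophage markers had 1 higher and 2 lower of 5. Cd68 rose by 3.93, Adgre1 (-0.85) and Csf1r (-0.88, with another probe set at 0.020) fell, and Cd163 and Lyz2 did not pass. Their list sums mix these opposite changes (7779 to 13682 in hypoxia and 8297 to 12846 in control). Endothelial markers had 1 lower of 5 (2081 to 4595 in hypoxia and 2410.3 to 5003 in control), near the share over all genes. Among all genes tested 18.8% were lower and 14.8% higher. Schwann cell markers had 1 lower of 2 (3812 to 6212 in hypoxia and 5784 to 8327 in control), the 1 tested adipocyte marker was lower (list sum 691.9 to 3081 in hypoxia and 2224 to 14793 in control), and red cell markers had 0 called of 2 (880.6 to 1325 in hypoxia and 669.0 to 1699 in control). Aif1, Hba-a1 and Lep lay below the filter, and no marker was at 0. The part of cell makeup in the members' changes was not tested.

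**Figure D2:**
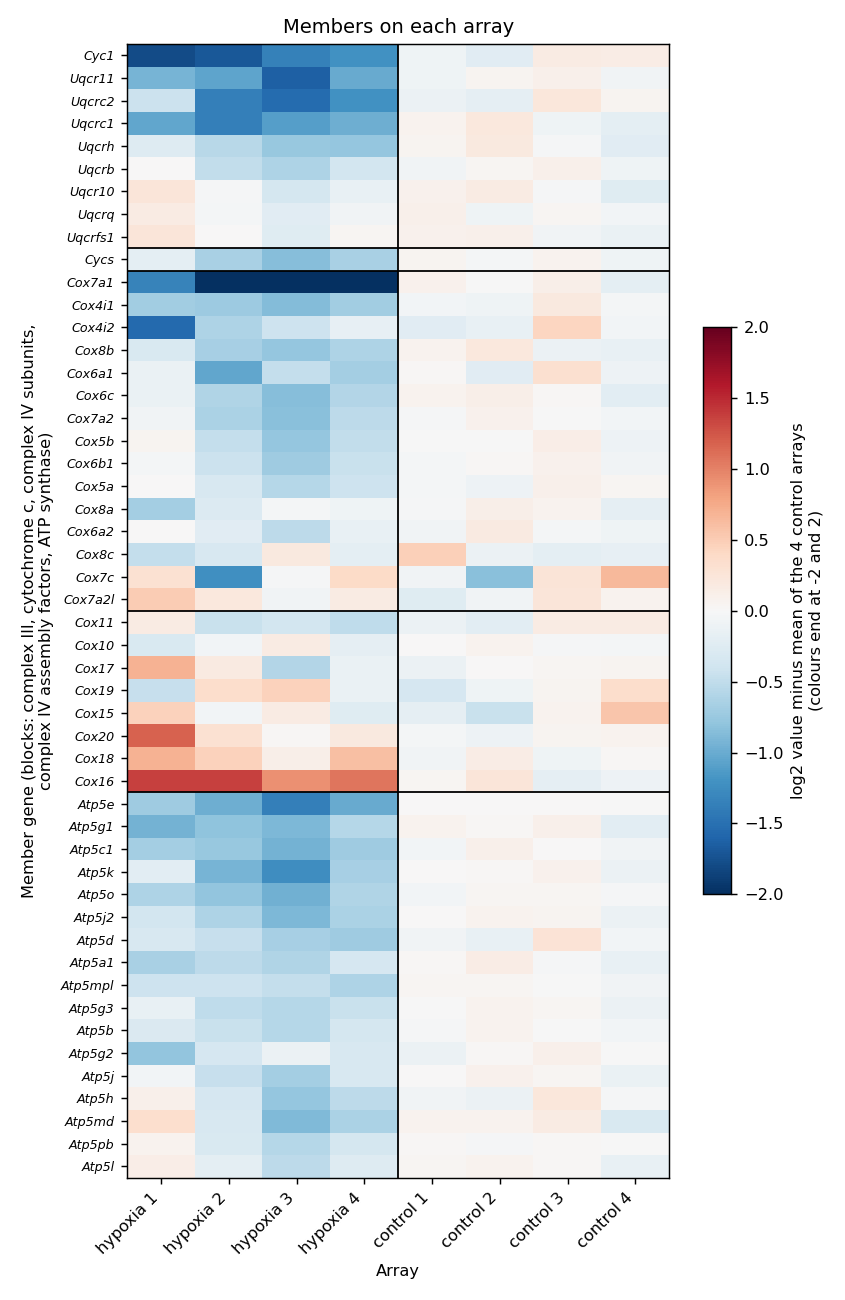
Log2 value of each member (rows) on each array (columns) minus the mean of the 4 control arrays, blue below and red above it. Hypoxia 1 is paler than hypoxia 2 to 4 in most rows, with a median deviation of -0.17 against -0.45 to -0.60.

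Of the 9 genes of complex III 5 fell and 0 rose, with a median change of -0.59, and 3 of the 4 core members fell. Cyc1, which encodes the haem protein cytochrome c1, had signals of 7066, 7558, 9578 and 10529.6 on hypoxia arrays 1 to 4, against 23107, 20756, 27336 and 27116 on control arrays 1 to 4. Its groups were far apart, and its change was -1.51 ± 0.16 (SE), a 2.85-fold lower value in hypoxia (limma adjusted p = 1.77e-05). Uqcrc2, a core protein that faces the mitochondrial matrix, had signals of 17962, 9373, 8283 and 10404 on hypoxia arrays 1 to 4, against 22419, 21352, 28492 and 25271 on control arrays 1 to 4. All 4 hypoxia values were again below control, but hypoxia 1 lay well above the other hypoxia arrays, and the change was -1.14 ± 0.21 (limma adjusted p = 0.0012). Its partner core protein Uqcrc1 averaged 8924 ± 1008 in hypoxia and 19445 ± 2477 in control, a change of -1.12 ± 0.14 (limma adjusted p = 6.77e-05). The Rieske iron-sulfur protein gene Uqcrfs1, the other core member, ranged over 16644 to 23291 on the hypoxia arrays and 17987 to 21068 on the control arrays, with a change of 0.016 whose 95% interval ran from -0.28 to 0.31.

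Among the 5 small subunits of complex III, 2 fell. Uqcr11, whose promoter window is printed above, had signals of 8539.8, 7836, 5257 and 8087 on hypoxia arrays 1 to 4, against 15325, 16914, 17578 and 15608 on control arrays 1 to 4. The highest hypoxia value lay well below the lowest control value, and the change was -1.16 ± 0.16 (limma adjusted p = 1.43e-04). Uqcrh, the acidic hinge protein beside cytochrome c1, changed by -0.59 ± 0.15 (limma adjusted p = 0.00909). Uqcrb had a change of -0.36 that did not pass (limma adjusted p = 0.0768), and its groups overlapped through hypoxia 1. Uqcr10 and Uqcrq had changes of -0.068 and -0.042, and each had another probe set past the filter with the opposite sign.

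Cytochrome c, read as Cycs, also fell. Its signals were 48986, 35908, 31077 and 35911 on hypoxia arrays 1 to 4, against 58401, 54875, 59235 and 52837 on control arrays 1 to 4. The groups did not overlap, hypoxia 1 was nearest to control, and the change was -0.59 ± 0.15 (limma adjusted p = 0.00825). Its 2 other probe sets past the filter changed by -0.78 and -1.03. With quantile normalization the change was -0.26.

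**Figure D3:**
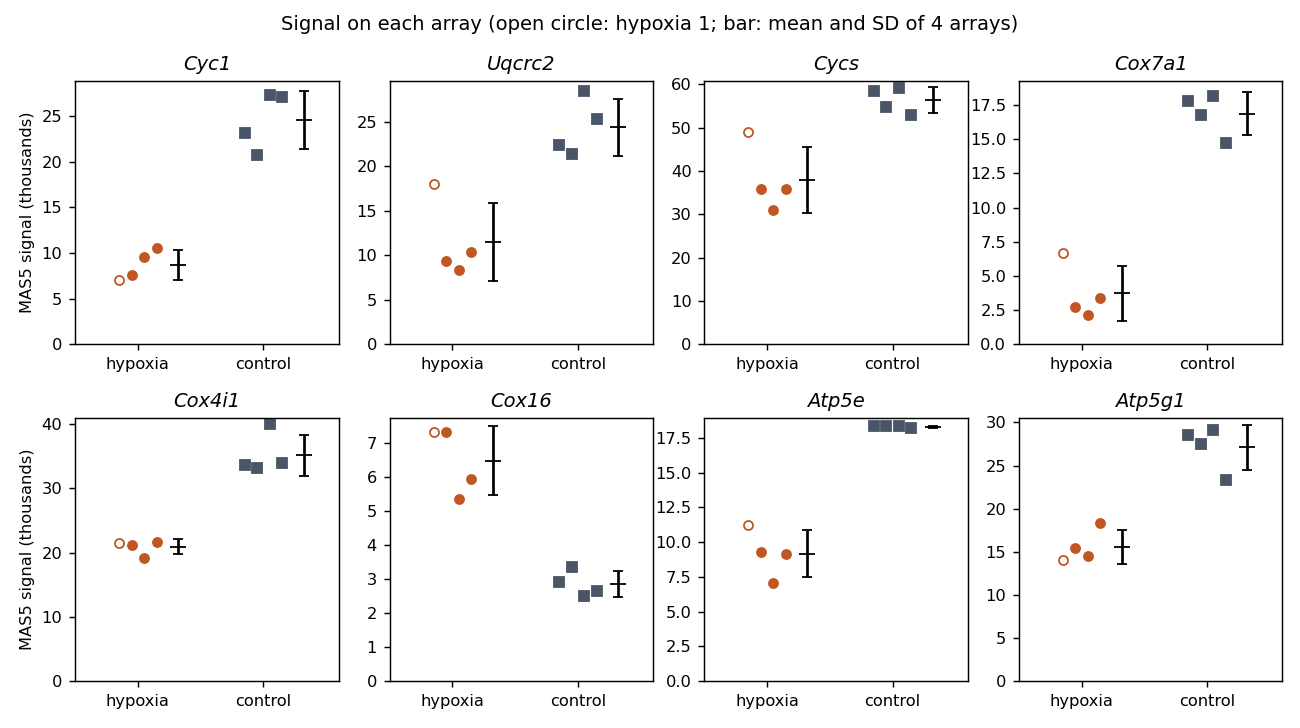
Signal (deposited MAS5 intensity, linear axis from 0) of 8 members on each array, hypoxia left and control right; bars mark the mean and SD of 4 arrays and the open circle is hypoxia 1. Groups separate in all 8 genes; Cox16 alone is higher in hypoxia, and hypoxia 1 lies nearest to control in Uqcrc2, Cycs, Cox7a1 and Atp5e.

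Complex IV showed the widest range of changes, from -2.32 to 1.18. Its 15 tested structural subunits, with Cox7a2l counted among them, included 6 that fell and 0 that rose, with a median of -0.42. Of the 8 assembly factors named Cox, 0 fell and 2 rose, where 14.8% of all genes were higher, with a median of 0.07. Of 17 tested partner proteins and assembly factors of complex IV with other names, 6 fell and 0 rose, with a median of -0.20. These 17 are not all assembly factors: Ndufa4 (-0.37, not passing) is a subunit, and Lrpprc and Slirp act on mitochondrial messenger RNA. The difference between structural subunits and assembly factors was not tested. Cox7a1, the heart and skeletal muscle form of subunit 7a, had the largest fall of all members. Its signals were 6689, 2697, 2126 and 3347 on hypoxia arrays 1 to 4, against 17813, 16799, 18163 and 14728 on control arrays 1 to 4. Every hypoxia value was far below every control value, the change was -2.32 ± 0.27, 4.98-fold lower (limma adjusted p = 4.00e-05), and it ranked 149 of 13258 genes from the most lowered. Cox7a2, the form of the same subunit found in most tissues, had signals of 44054, 29577, 25843 and 32144 on hypoxia arrays 1 to 4, against 45117, 48688, 45902 and 44535 on control arrays 1 to 4. Hypoxia 1 lay just under the lowest control array, hypoxia 2 to 4 were clearly lower, and the change was -0.51 ± 0.16 (limma adjusted p = 0.0248).

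Of the 10 tested genes of paired subunits 5 fell: Cox7a1, Cox7a2, Cox4i1, Cox8b and Cox6a1. For Cox4i1, the common form of subunit 4, signals were 21565, 21190.4, 19129.5 and 21692 on hypoxia arrays 1 to 4, against 33579, 33116, 39964 and 33965 on control arrays 1 to 4. The groups were separate, hypoxia 1 did not stand apart here, and the change was -0.75 ± 0.12 (limma adjusted p = 4.99e-04). Cox4i2, the form known to be induced by low oxygen in cultured cells, was dim, with signals of 103, 211, 244 and 295 on hypoxia arrays 1 to 4, against 282, 299.9, 451 and 318 on control arrays 1 to 4. The groups overlapped and the change of -0.69 ± 0.29 did not pass (limma adjusted p = 0.0842). For Cox8b, the heart and skeletal muscle form of subunit 8, signals were 28239.7, 22163, 20464 and 22830.5 on hypoxia arrays 1 to 4, against 36745, 40271, 32176 and 31401 on control arrays 1 to 4. They did not overlap, and the change was -0.59 ± 0.14 (limma adjusted p = 0.00659). Cox8a, the form of most tissues, had signals of 1300.4, 1726, 2041 and 1964 on hypoxia arrays 1 to 4, against 2054, 2279, 2206 and 1851 on control arrays 1 to 4. Hypoxia 1 was the lowest array for this gene, the groups overlapped, and the change of -0.27 did not pass (limma adjusted p = 0.236).

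Subunit 6a showed a call in its widely expressed form only, and the pair was not shown to differ in the test below. Cox6a1 had signals of 8810.4, 4685, 6940.2 and 6026 on hypoxia arrays 1 to 4, against 9799.6, 8251, 12055 and 8975 on control arrays 1 to 4. Hypoxia 1 overlapped control, and the change was -0.58 ± 0.19 (limma adjusted p = 0.0319). Cox6a2, the heart and skeletal muscle form, had signals of 42670.4, 36066, 29354 and 38225 on hypoxia arrays 1 to 4, against 40515, 48049.8, 41262 and 40117 on control arrays 1 to 4. Its groups overlapped and the change of -0.22 did not pass (limma adjusted p = 0.253). For Cox6b1 signals were 43560.4, 33457, 27382 and 32942 on hypoxia arrays 1 to 4, against 43863, 45692, 47415 and 42692 on control arrays 1 to 4. Hypoxia 2 to 4 lay below control and hypoxia 1 within it, and the change of -0.41 did not pass (limma adjusted p = 0.0505). The other Cox6b1 probe set changed by -0.45 and passed (limma adjusted p = 0.0126 over all probe sets). There all hypoxia arrays lay below all control arrays, so this gene is uncertain. Cox8c, known from testis, was dim, and its probe sets disagreed: the brighter changed by -0.20 without passing, and the other by 0.83 (limma adjusted p = 0.0314 over all probe sets), so the gene is uncertain.

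Of the 4 tested structural subunits with no paired form among the members, Cox6c fell, with a change of -0.55 ± 0.16 (limma adjusted p = 0.0178), although hypoxia 1 overlapped control. Its other probe set, also bright, changed by -0.074 without passing (limma adjusted p = 0.824 over all probe sets), so this gene is uncertain. Cox5a and Cox5b, 2 further nuclear subunits around the core, had changes of -0.32 and -0.42 that did not pass (limma adjusted p = 0.0987 and 0.0715). The other probe sets of Cox5b past the filter changed by -0.52 to 0.45, and of these the one at -0.52 passed (limma adjusted p = 0.0457 over all probe sets). Cox7c was read by a dim probe set only, averaging 204 ± 88.3 in hypoxia and 222 ± 94.8 in control. Cox7a2l, which joins complexes III and IV into supercomplexes, changed by 0.20 without passing.

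Among the assembly factors named Cox, the 2 that were called rose. Cox16, which takes part in building the copper-bearing subunit 2, had signals of 7344, 7341, 5347 and 5947 on hypoxia arrays 1 to 4, against 2904, 3366, 2502 and 2639.8 on control arrays 1 to 4. Every hypoxia array was above every control array, and the change was 1.18 ± 0.15, 2.26-fold higher (limma adjusted p = 9.11e-05). Cox18, which helps insert subunit 2 into the membrane, had signals of 1197, 1018, 799 and 1124 on hypoxia arrays 1 to 4, against 694, 808, 689 and 739.8 on control arrays 1 to 4. Hypoxia 3 lay within the control range, and the change was 0.47 ± 0.16 (limma adjusted p = 0.0369). Cox20, a chaperone of subunit 2, changed by 0.42 without passing, and hypoxia 1 was far above the other hypoxia arrays. Changes from -0.29 to 0.084 that did not pass were found for Cox11, Cox17 and Cox19, which act in copper delivery, and for Cox10 and Cox15, which make haem A.

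In the ATP synthase all 17 genes had a change below 0, and 11 fell, with a median of -0.48. All 5 genes of the F1 head were among them. Atp5e, the epsilon subunit of the central stalk, had signals of 11203, 9264, 7083 and 9151 on hypoxia arrays 1 to 4, against 18365, 18347, 18363 and 18221 on control arrays 1 to 4. Control arrays were nearly equal, all hypoxia arrays lay far below them, and the change was -1.02 ± 0.15, 2.02-fold lower (limma adjusted p = 1.83e-04). Atp5c1, the gamma subunit that turns within the head, had signals of 26331, 24957, 21955 and 25803 on hypoxia arrays 1 to 4, against 40617, 45511, 42594 and 40431 on control arrays 1 to 4. These groups did not overlap and the change was -0.77 ± 0.12 (limma adjusted p = 3.54e-04), but another, dim probe set changed by 0.19 and the mean of both by -0.29 (limma adjusted p = 0.326), so this gene is uncertain. The catalytic subunit gene Atp5b changed by -0.42 ± 0.12, its partner Atp5a1 by -0.52 ± 0.13 and the delta subunit gene Atp5d by -0.54 ± 0.14 (limma adjusted p = 0.0179, 0.00701 and 0.0113). With quantile normalization the change of Atp5b was -0.27.

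Subunit c, which forms the turning ring in the membrane, is encoded by 3 genes whose mature proteins are the same. Atp5g1 had signals of 14018, 15401, 14476 and 18303 on hypoxia arrays 1 to 4, against 28507, 27512, 29168 and 23366 on control arrays 1 to 4. Hypoxia values were all below control, and the change was -0.81 ± 0.14 (limma adjusted p = 5.91e-04). Atp5g3 had signals of 33632, 26312, 25062 and 27229.7 on hypoxia arrays 1 to 4, against 37102, 39279, 38448 and 34306 on control arrays 1 to 4. The groups came close at hypoxia 1 without meeting, and the change was -0.42 ± 0.13 (limma adjusted p = 0.0272). Atp5g2 had signals of 10209.6, 14007, 16181 and 14110.5 on hypoxia arrays 1 to 4, against 16274, 17949, 18868 and 17458 on control arrays 1 to 4. Its groups were only just separate and the change of -0.39 did not pass (limma adjusted p = 0.0659).

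The stalk and the small membrane subunits held fewer calls. Of the 4 peripheral stalk genes, Atp5o, which ties the stalk to the head, fell, with a change of -0.74 ± 0.13 (limma adjusted p = 6.18e-04). Atp5h, Atp5j and Atp5pb had changes of -0.38, -0.38 and -0.29 that did not pass. The other Atp5pb probe set changed by -0.44 with separate groups and passed (limma adjusted p = 0.033 over all probe sets), so that gene is uncertain. Of the 5 small membrane subunits 3 fell: Atp5k (subunit e) with -0.76 ± 0.19, Atp5j2 (subunit f) with -0.63 ± 0.14 and Atp5mpl, a small proteolipid, with -0.48 ± 0.12 (limma adjusted p = 0.00779, 0.00329 and 0.00707). Atp5k and Atp5l are known to help the enzyme form dimers, and Atp5l changed by -0.21 and Atp5md by -0.38 without passing.

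Of the 25 calls, 19 stood with any single array left out and 6 did not. Cox18 lost its call in 7 of 8 such fits (changes 0.40 to 0.59, highest limma adjusted p = 0.0884), Atp5g3 in 6 (-0.51 to -0.37, 0.0779), Cox6a1 in 5 (-0.73 to -0.43, 0.103), Cox7a2 in 5 (-0.66 to -0.41, 0.0741), Atp5b in 2 (-0.46 to -0.36, 0.0572) and Cox6c in 1 (-0.68 to -0.44, 0.0549). The fits without 1 array that lost Cox6c and Atp5b left out control 2 for both and also hypoxia 2 for Atp5b. Median centring ended the calls of Cycs, Uqcrh, Cox6a1, Cox6c, Cox7a2, Atp5b, Atp5d, Atp5g3 and Atp5mpl, with changes from -0.51 to -0.33 that kept their direction. Besides those named above, Cox8a, Cox6a2, Cox7a2l, Cox15 and Atp5g2 each had a probe set past the filter with the opposite sign, at 0.11, 0.057, -0.011, -0.45 and 0.20 (for Cox15 the lower of a pair), none of which passed. Quantile normalization gave Cox7a2 a change of -0.31, and the mean of its probe sets gave Cox6c -0.31 (limma adjusted p = 0.203) and Atp5d -0.86.

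Whether the 2 genes of an isoform pair changed unequally was asked in 7 pairs by an exact permutation test over the 70 ways of dividing the 8 arrays, two-sided, with p adjusted over the 7 pairs; the smallest p this design allows is 0.0286. Cox7a1 minus Cox7a2 was -1.80 ± 0.20 (SE) on the log2 scale, with array values relative to the control mean of -1.26 on hypoxia 1 and -2.14 to -1.81 on hypoxia 2 to 4, against -0.14 to 0.11 in control (exact p = 0.0286, adjusted p = 0.1). Atp5g1 minus Atp5g3 was -0.39 ± 0.15 (exact p = 0.0286, adjusted p = 0.1). Both pairs had separate groups, and neither passed after adjustment. Atp5g1 minus Atp5g2 was -0.42 ± 0.16 (exact p = 0.0571, adjusted p = 0.133), Cox6a2 minus Cox6a1 0.36 ± 0.25 (exact p = 0.171, adjusted p = 0.3) and Cox8b minus Cox8a -0.32 ± 0.25 (exact p = 0.257, adjusted p = 0.36). Cox4i1 minus Cox4i2 was -0.059 ± 0.33 and Atp5g2 minus Atp5g3 0.028 ± 0.24, both with an exact p of 0.914. With the mean of all probe sets per gene, Atp5g1 minus Atp5g2 was -0.71 (adjusted exact p = 0.0667), Cox8b minus Cox8a -0.51 (0.167) and Atp5g2 minus Atp5g3 0.32 (0.16). With quantile normalization Cox6a2 minus Cox6a1 was 0.67 (adjusted exact p = 0.1), Cox8b minus Cox8a -0.21 (0.44), Cox4i1 minus Cox4i2 -0.088 (0.833) and Atp5g2 minus Atp5g3 -0.046 (0.914), and pseudocounts of 1 and 64 gave Cox4i1 minus Cox4i2 values of -0.011 and -0.17. The sizes of these pair differences thus depended on the probe set rule and the scaling. Without hypoxia 1 the adjusted exact p was 0.04 for Cox7a1 minus Cox7a2 (-1.98), Cox8b minus Cox8a (-0.55), Atp5g1 minus Atp5g2 (-0.50), Atp5g1 minus Atp5g3 (-0.25) and Atp5g2 minus Atp5g3 (0.25), each at the smallest exact p that 4 against 3 allows, 0.0286.

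**Figure D4:**
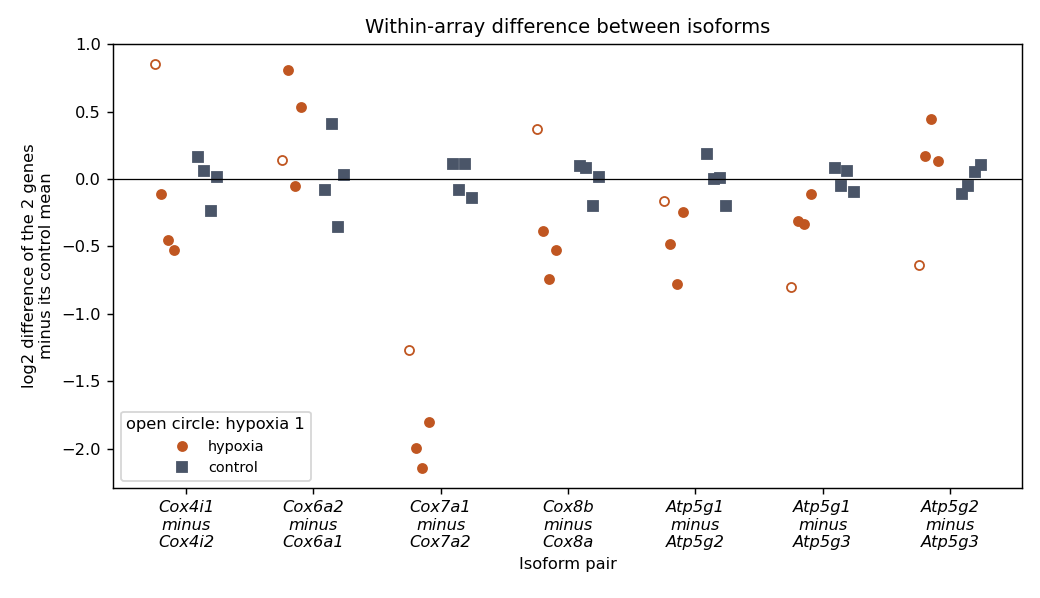
Log2 difference of the 2 genes of each pair on each array, relative to the control mean (vertical axis), hypoxia left and control right of each pair, with an open circle for hypoxia 1. Cox7a1 minus Cox7a2 lies between -2.14 and -1.26 in hypoxia and between -0.14 and 0.11 in control; the groups of most other pairs overlap or nearly meet.

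Partner proteins of these complexes and factors that help build them, with symbols outside the member rule, fell in part. For complex III 3 of 7 fell and 0 rose (median -0.14), with Bcs1l, which inserts the Rieske protein, at -1.84 ± 0.18 (limma adjusted p = 1.10e-05). Hccs, which attaches haem to both cytochromes c, changed by -0.45 ± 0.14 (limma adjusted p = 0.0261), while Uqcc2 (-0.60) had another probe set at 0.023 and is uncertain. For complex IV 6 of 17 tested fell and 0 rose (median -0.20), led by Pet100 (-1.40), Lrpprc (-1.39), which stabilizes mitochondrial messenger RNAs, and Coa3 (-0.93), while Coa7 (-0.82) had another probe set at 0.17. For the ATP synthase 4 of 6 fell and 0 rose (median -0.52): Tmem70 (-0.56) and Atpaf1 (-0.49) with no probe set of opposite sign, and Atpif1 (-0.84), the inhibitor of the enzyme, and Tmem242 (-0.89) with others at 0.56 and 0.80.

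Complexes I and II, which feed electrons to complex III, were lower as well: 24 of 33 tested complex I genes (median -0.64), with Ndufb2 at -1.38 and Ndufs1 at -1.26, and 5 of 6 of complex II and its assembly (median -0.79), with Sdhc at -1.18 and Sdha at -0.72, and 0 higher in either. Carriers around the ATP synthase divided by gene. The muscle ATP/ADP carrier gene Slc25a4 changed by -0.90 ± 0.13 and the form of other tissues, Slc25a5, by 0.62 ± 0.18 (limma adjusted p = 2.19e-04 and 0.0174), each with its other probe sets in the same direction. The outer membrane channels Vdac1, Vdac2 and Vdac3 changed by -0.54, -0.61 and -0.64, all called lower, and the sixth gene of this list, the phosphate carrier Slc25a3, did not pass. Of 7 tested genes that act with cytochrome c in cell death, Bak1 was called higher and Bcl2 lower. These counts were near the shares over all genes tested, 14.8% higher and 18.8% lower. Bak1 (0.55) was close to the threshold (limma adjusted p = 0.047), and its hypoxia 1 value lay within the control range. Bcl2 changed by -0.66, with other probe sets from -1.72 to 0.80.

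Among 12 regulators of respiratory genes 3 fell and 2 rose, with a median of -0.096. These counts are near the shares over all genes tested, 18.8% lower and 14.8% higher. Ppargc1b, a coactivator of mitochondrial genes, averaged 104 ± 93.8 in hypoxia and 971 ± 196 in control, a change of -3.36 ± 0.45 (limma adjusted p = 1.11e-04). It passed the filter through its control values. Hypoxia 1 and hypoxia 2, at 20.7 and 51.4, lay below the filter signal of 90.2, so the size of this fall depends on the pseudocount and is uncertain. Mef2c, a muscle transcription factor, changed by -1.25 ± 0.16 (limma adjusted p = 6.61e-05) and 4 other probe sets by -1.99 to -1.08. Gabpa rose (0.62), while Esrra (-1.22) and Yy1 (0.82) had probe sets of the opposite sign. Neither Nrf1 (0.069) nor Ppargc1a (0.35) passed, and Hif1a and Epas1 did not pass either. Of 14 genes that maintain or express mitochondrial DNA 1 fell, Mterf2 (-2.26), and 1 rose, Ssbp1 (0.56, with another probe set at -0.31). Neither count exceeded the share over all genes tested. Tfam, which packages that DNA, changed by -0.19 without passing.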

How the data were processed

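The authors deposited MAS5 intensity values for 8 Affymetrix Mouse 430 2.0 arrays, 4 hypoxia and 4 control; MAS5 is named per the submitters' processing notes, with no settings stated there. The deposited intensity is linear and each array has a 2% trimmed mean of 500.0, so only relative levels can be compared, and the number of arrays limits the precision. Members and gene lists were chosen with earlier results of these data known. Control probe sets (64) were left out, as were the 40% of probe sets with the lowest mean (signal below 90.2). Each gene was read by its brightest probe set with 1 symbol (34958 probe sets have 1 symbol, 34945 of them not controls, 932 several, and 9211 are unnamed here), and log2(signal + 16) was tested over 13258 genes with limma 3.58.1 in R 4.3.3 (lmFit, eBayes with trend, two-sided, Benjamini-Hochberg, threshold 0.05). The pseudocount makes fold changes of dim genes smaller. Of the 52 members 33 had more than 1 probe set, 10 tested members had another past the filter with the opposite sign, and 13 chosen probe sets carry a suffix (s or x) that marks possible binding of related transcripts.

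Arrays were grouped by title. Named with values on all 8 arrays were, per complex, the 3 called members with the largest fall and each called riser, both genes of isoform pairs, Cyc1 and Cycs; of related lists, up to 4 called genes with the smallest p, and others by name where a sentence says how they changed, chosen after their values were seen. Alternatives were other scalings, pseudocounts, filters, probe set rules, variance models, a replicate block and leaving out each array. In simulated data for this comparison over 13258 genes, 10% of changes of 0.5, 56% of 1, 96% of 2 and 98% of 4 (log2) were recovered. Only 50 genes were changed at each size, whereas 4448 genes were called in the data. The adjusted threshold was therefore stricter in the simulation, and its shares cannot be carried over to the members. Promoters came from RefSeq, GRCm38.p6, which is of another strain than C57Bl/10.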

Additional observations from a re-analysis of the deposited data

Results flagged for a closer look

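In 104 sets of 4 arrays examined, 6 held an array whose gap to its nearest neighbour was a large share of the set's range; chance gives about 1 in 20. Hypoxia 1 stood apart in the Gapdh 3′ to 5′ ratio (3.44 against 0.801 to 0.874 on the other hypoxia arrays, share 0.972) and in the beta-actin ratio (2.53 against 1.40 to 1.59, share 0.837). Cox4i1 was high on control 3 (log2 15.29 against 15.02 to 15.05, share 0.865), and its fall stood with each array left out. Cox6a2 was high on control 2 (15.55 against 15.29 to 15.33, share 0.844) and Cox8c on control 1 (9.31 against 8.64 to 8.72, share 0.887). Atp5e was lower on control 4 (14.15 against 14.16 to 14.17, share 0.880), a gap within nearly equal values.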

How the results depend on the processing

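The count of lower members was 23 and ranged from 19 to 32 with 1 array left out (4 to 10 in complex IV against 6, 9 to 15 in complex V against 11, 5 to 6 in complex III against 5), the highest without hypoxia 1; the count of higher members was 1 to 2, and of all genes called 3750 to 4466. Median centring gave 14 lower members, 3 in complex IV and 7 in complex V. Higher members numbered 1 without the intensity trend and 1 with the replicate block. Replicate numbers did not pair the arrays (same-number correlations -0.075 to 0.0024, and no array correlated best with its own number); the replicate block gave 20 lower members, and the other settings 18 (no filter) to 29 (array weights). Leaving out 1 array, the pair differences ranged from -1.98 to -1.69 (Cox7a1 minus Cox7a2), -0.50 to -0.30 (Atp5g1 minus Atp5g2), -0.48 to -0.25 (Atp5g1 minus Atp5g3), -0.11 to 0.25 (Atp5g2 minus Atp5g3), -0.36 to 0.098 (Cox4i1 minus Cox4i2), 0.21 to 0.50 (Cox6a2 minus Cox6a1) and -0.55 to -0.18 (Cox8b minus Cox8a). Quantile normalization turned the sign of Atp5g2 minus Atp5g3 (-0.046), Uqcrb (0.022), Cox6a2 (0.0093), Cox10 (0.014) and Cox17 (-0.042). Median centring turned Uqcr10 (0.014) and Uqcrq (0.040), the mean of probe sets Uqcr10 (0.11), Uqcrq (0.30), Cox8c (0.31) and Cox15 (-0.14), and array weights Uqcrfs1 (-0.017) and Cox17 (-0.050). With 1 array left out, changes that turned sign ranged for Cox17 from -0.19 to 0.24, Cox19 from -0.085 to 0.22, Cox15 from -0.062 to 0.27, Uqcrfs1 from -0.061 to 0.10, Cox7c from -0.42 to 0.22, Uqcr10 from -0.17 to 0.025 and Uqcrq from -0.11 to 0.021. None of these sign changes was of a called member. The cause was not tested. Dim signals limit Cox4i2, Cox7c and Cox8c.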
